A study of Mus musculus with 62 samples.

Results

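Actins are the filament proteins on which myosin pulls in muscle and on which the cortex and the adhesions of other cells are built. The transcripts of 4 actin genes, Acta1, Actc1, Actb and Actg1, were followed through the gastrocnemius, a large and mainly fast muscle of the lower leg, of mice with and without melanoma. The members were taken from the gene table by their symbols, 4 of the 47643 symbols listed, and all 4 passed the filter on low values (at least 1 TPM in at least 5 libraries), as did 12364 genes in all. TPM is a transcript level corrected for transcript length and scaled to the same total of 1000000 in every library. The genes were chosen with their values in the cachectic group in view. For these 4 genes, comparisons that involve this group are therefore given as a description with a standard error (SE) and without a p, and their calls are only counted beside those of all genes. Tests of the 4 genes are given for the other groups. Genes that are no members are tested in all groups.

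The study sequenced RNA of the gastrocnemius in 62 libraries. Female mice were injected at 2 months of age with melanoma cells that cause cachexia, a wasting of muscle and fat seen in many cancers (CAC), with melanoma cells that do not (NCAC), or with a mock injection (Con). Muscle was taken 2, 4, 6 or 8 weeks later. Each group held 5 libraries at each week except CAC at 8 weeks, which held 7. The description of each library gave its group, and a tag that names the cachectic cells for every library was not used. The sources differ on the strain, NCI Ath/nude in the series design and C57BL/6J in the sample labels, and name neither the melanoma lines nor the number of clones. The extraction protocol also mentions a time point of 3 weeks after injection of LLC cells, which matches none of the groups. The labels speak of biological replicates and name no individual mice, so a p-value measures the spread between these libraries.

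All actin genes code for nearly the same protein, and they differ in where and when they are used. Acta1, skeletal alpha-actin, forms the thin filaments of adult skeletal muscle, and Actc1, cardiac alpha-actin, forms those of the heart and of embryonic skeletal muscle. Actb and Actg1, beta- and gamma-actin, build the cytoplasmic filaments of nearly every cell, among them fibroblasts, endothelial cells and macrophages. Muscle actin genes are classical targets of serum response factor, Srf, which binds a short motif called the CArG box, and whose partners of the MRTF family are held back by free actin monomers.

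The depth of the libraries, in units of 1000000 reads, was an estimated 39.58 to 48.35, recovered from the steps between TPM values, and the lowest Actc1 value stood for an estimated 139 reads. The defining genes of muscle fibres were abundant in all 62 libraries, with Ckm at 12572 to 24419 TPM and Myh4 at 7847 to 17976 TPM. The mean correlation of a library with the others of its group, over genes on the log scale, was 0.974 to 0.990 in Con, 0.978 to 0.990 in NCAC and 0.954 to 0.983 in CAC. Replicate 6 of CAC at 8 weeks had the lowest value.

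The start regions of the genes are shown because they hold the motif that ties the muscle actins to Srf. Each window runs from 250 bases before to 50 bases after the RefSeq start of the gene on build GRCm38.p6, minus strand, and is written 5′ to 3′ with CArG boxes and TATAAA in capitals. The windows are chr8:123894726-123895025 for Acta1, chr2:114052826-114053125 for Actc1 and chr11:120348446-120348745 for Actg1.
Acta1: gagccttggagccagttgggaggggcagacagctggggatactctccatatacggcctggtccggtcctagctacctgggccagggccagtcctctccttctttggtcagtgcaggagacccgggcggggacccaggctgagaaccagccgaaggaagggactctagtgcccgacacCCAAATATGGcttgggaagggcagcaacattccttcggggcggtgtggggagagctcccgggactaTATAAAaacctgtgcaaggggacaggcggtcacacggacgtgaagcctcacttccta
Actc1: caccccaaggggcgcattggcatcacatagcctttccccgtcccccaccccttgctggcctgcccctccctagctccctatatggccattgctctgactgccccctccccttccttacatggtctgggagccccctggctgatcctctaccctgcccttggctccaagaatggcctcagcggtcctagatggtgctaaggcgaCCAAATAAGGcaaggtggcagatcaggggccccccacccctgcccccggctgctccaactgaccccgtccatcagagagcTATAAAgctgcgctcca
Actg1: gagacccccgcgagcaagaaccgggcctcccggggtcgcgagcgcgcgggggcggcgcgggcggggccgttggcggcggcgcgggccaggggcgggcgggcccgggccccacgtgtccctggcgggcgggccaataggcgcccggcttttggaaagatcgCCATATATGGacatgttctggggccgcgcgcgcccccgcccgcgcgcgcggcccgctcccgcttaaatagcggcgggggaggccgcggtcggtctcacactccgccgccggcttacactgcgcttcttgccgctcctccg
A CArG box, searched on both strands, was CCAAATATGG at bases -73 to -64 before the start of Acta1. It was CCAAATAAGG at -47 to -38 in Actc1 and CCATATATGG at -90 to -81 in Actg1. Such a box occurs in 1.63% of the 32851 windows of the same length in RefSeq. TATAAA, also searched on both strands, lay at -7 to -2 in Acta1 and at 34 to 39 after the start in Actc1, and it occurs in 13.6% of the windows. Both motifs together occur in 0.286%. A match describes letters and is not a measured binding site. The positions hold for the RefSeq starts only. In the GENCODE vM21 annotation Actc1 begins at base 114053548, upstream of its whole window.

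The 4 genes lie on different chromosomes, all on the minus strand of GENCODE vM21 on build mm10. Acta1 spans 123891769 to 123894751 on chromosome 8, Actc1 spans 114047282 to 114053548 on chromosome 2, Actb spans 142903115 to 142906754 on chromosome 5 and Actg1 spans 120345690 to 120348542 on chromosome 11. Their values are given per gene symbol, so the transcripts of a gene are not told apart. The coding sequences are close relatives. Acta1 and Actc1 share 86.2% of 1134 coding bases, Actb and Actg1 share 88.7% of 1128, and the most distant pair, Actc1 and Actg1, shares 81.6%. Stretches of 50 identical bases, which a read of that length could not place, were nonetheless few. The main transcripts of Actb and Actg1 share 30 such windows of 1871 and 1903, Acta1 and Actb share 28, Acta1 and Actg1 share 10, and Actc1 shares 0 with any of the other three. How the authors treated reads that fit several genes is not given in the sources used here, and reads in the shared windows could be assigned to either gene. Mean levels in Con were 48348 TPM for Acta1, 138 TPM for Actb and 164 TPM for Actg1. Even a small part of the Acta1 reads could therefore weigh on Actb and Actg1, which was not tested. The processed pseudogene Actg-ps1 was listed at 0 in all 62 libraries. The predicted gene Gm20388 spans Acta1 on the opposite strand and reached at most 35.1 TPM. A530058N18Rik overlaps Actc1 on the opposite strand over 6267 bases, and no TPM value was available for it.

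In mock-injected muscle the 4 actins stood at very different levels per transcript length. Acta1 had the second highest mean of all genes, 48348 ± 4625 TPM (SD, n = 20 libraries over the 4 weeks). Actc1 followed at 454 ± 234 TPM (rank 182), Actg1 at 164 ± 38.3 TPM (rank 472) and Actb at 138 ± 27.4 TPM (rank 556). Acta1 lay far above the others in every library. Actc1 ranged from 105 to 890 TPM and Actg1 from 95.6 to 240 TPM, so their ranges overlapped, as did those of Actg1 and Actb, which ranged from 95.7 to 187 TPM.

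Actc1 was the least uniform member. Its highest Con library held 8.46 times the TPM of its lowest, against 1.42 times for Acta1, 1.96 times for Actb and 2.51 times for Actg1. The residual SD within groups was 1.07 for Actc1 on the log2 scale, higher than that of 99.5% of the genes tested, where the median was 0.195. It was 0.20 for Acta1, 0.28 for Actb and 0.31 for Actg1. This spread sets how large a difference in Actc1 can be resolved. The residual SD is 1 value for all 12 groups, whose own spreads differed. The SD of the log2 ratio of Actc1 to Acta1 was 2.00 in CAC at 8 weeks, against 0.36 to 1.15 in the Con and NCAC groups. The SE of Actc1 differences can thus be too small for CAC at 8 weeks and too large between other groups.

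**Figure D1:**
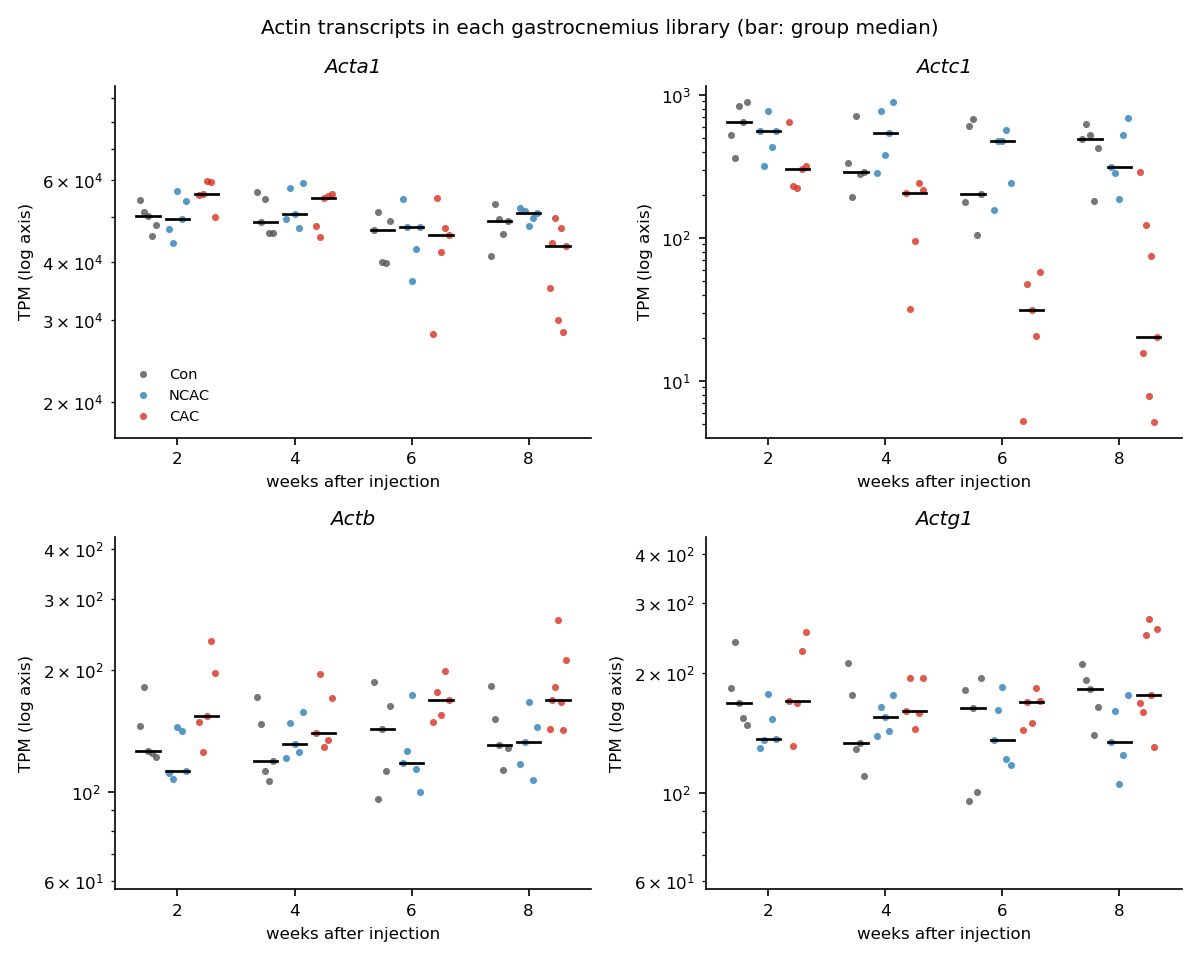
TPM of Acta1, Actc1, Actb and Actg1 (log axes, each with its own range) in every library by weeks after injection, in Con (grey), NCAC (blue) and CAC (red), with a bar at each group median. The median of Actc1 in CAC is 304 TPM at 2 weeks and 20.4 TPM at 8 weeks; over all 62 libraries the highest value is 2.13 times the lowest for Acta1, 2.78 times for Actb and 2.87 times for Actg1.

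In cachectic muscle Actc1 stood lower than in mock muscle at every week, and the gap was widest at 6 and 8 weeks. At 2 weeks the CAC libraries held 641, 229, 223, 304 and 320 TPM and the Con libraries 527, 359, 838, 649 and 890 TPM. NCAC libraries held 555, 318, 772, 428 and 561 TPM. In 4 of the 5 CAC libraries Actc1 was below every Con library, and replicate 1, at 641 TPM, lay inside the Con range. The difference of CAC from Con was -0.97 ± 0.66 on the log2(TPM + 1) scale (SE, with a 95% interval of -2.28 to 0.35), which spans 0.

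At 4 weeks the CAC libraries held 204, 31.8, 95.6, 244 and 216 TPM of Actc1. Con held 335, 194, 710, 278 and 286 TPM and NCAC held 282, 771, 377, 543 and 891 TPM. All 5 CAC libraries were below all 5 NCAC libraries, and 2 of them were below all Con libraries. Among all genes tested, 0.946% had CAC libraries that lay wholly below those of NCAC at this week. The log2 difference was -1.35 ± 0.66 from Con and -2.04 ± 0.66 from NCAC. Replicate 2, at 31.8 TPM, weighed heavily in both. Without it the differences were -0.86 and -1.54.

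At 6 weeks the CAC libraries held 5.24, 47.4, 31.1, 20.7 and 57.9 TPM of Actc1. The Con libraries held 179, 602, 680, 105 and 201 TPM and the NCAC libraries 156, 478, 478, 572 and 243 TPM. No CAC library reached the lowest library of either other group. Groups that do not overlap in this direction were seen for 2.26% of genes against Con and for 2.01% against NCAC. The log2 difference from Con was -3.39 ± 0.66 (95% interval -4.71 to -2.08), or 10.5-fold lower. From NCAC it was -3.73 ± 0.66, or 13.2-fold lower. The lowest library of the group, replicate 1 at 5.24 TPM, moved the difference from Con to -2.88 when it was left out.

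At 8 weeks Actc1 ranged from 5.19 TPM through a median of 20.4 TPM to 289 TPM in the 7 CAC libraries. Con held 490, 624, 522, 180 and 426 TPM and NCAC held 315, 282, 188, 520 and 693 TPM. In 6 of the 7 CAC libraries Actc1 was below every Con and every NCAC library. Replicate 1, at 289 TPM, stood within both ranges, so the groups overlapped. The log2 difference was -3.61 ± 0.61 from Con (12.2-fold lower) and -3.41 ± 0.61 from NCAC (10.6-fold lower). Without replicate 1 of CAC the difference from Con was -4.13, and leaving out any 1 library kept it between -4.13 and -3.21.

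Of the 22 CAC libraries, 12 were below the lowest of the 40 Con and NCAC libraries, which held 105 TPM. They were 2 libraries at 4 weeks, 5 at 6 weeks and 5 at 8 weeks. Over all 62 libraries the highest Actc1 level was 172 times the lowest. By size of the log2 change from Con, Actc1 ranked 91st of 12364 genes at 2 weeks, 65th at 4 weeks, 9th at 6 weeks and 11th at 8 weeks. This rank takes no account of the spread of a gene, which is wide for Actc1. In NCAC against Con, where Actc1 was not called, it ranked 623rd, 63rd, 582nd and 980th in order of weeks.

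Transcripts of other cells and of the heart were read beside Actc1. In bulk muscle, fewer cells of a type and less RNA per cell cannot be told apart. Among the listed markers of heart muscle, Myl7, Nppa and Ryr2 were at or near 0, and Tnni3 reached at most 1.53 TPM. Myh6 (25.9 to 114 TPM) and Myl4 (1.37 to 4.77 TPM) were detected in every library. Myl7, an atrial light chain, was at 0 in 59 of 62 libraries, Nppa, an atrial hormone, was at 0 in 41, and Ryr2, the heart's calcium release channel, never exceeded 0.0720 TPM. Of the 6 cardiac markers 2 could be tested, and 0 rose and 0 fell in CAC against Con at any week as deposited, while 1 fell at 8 weeks after the rescaling described below. Their summed level was 59.6 to 86.5 TPM in CAC and 28.2 to 80.9 TPM in Con at 8 weeks, most of it Myh6, at 25.9 to 114 TPM over all libraries.

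Acta1 in CAC overlapped Con and NCAC at every week. At 2 weeks the CAC libraries held 55562, 55870, 59641, 59487 and 49906 TPM, and the Con libraries 54337, 51313, 50118, 45393 and 48122 TPM. Of the CAC libraries 4 were above every Con library. At 4 weeks the log2 difference from Con was 0.04 ± 0.12 and at 6 weeks -0.09 ± 0.12, after 0.17 ± 0.12 at 2 weeks.

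At 8 weeks Acta1 ranged from 28238 TPM through a median of 43212 TPM to 49789 TPM in the 7 CAC libraries. It was 41271, 53261, 49350, 45881 and 48866 TPM in Con and 52182, 51458, 47674, 49615 and 50937 TPM in NCAC. The 3 lowest CAC libraries, replicates 1, 4 and 6, were below every Con library, and 6 of 7 were below every NCAC library. The log2 difference was -0.29 ± 0.12 from Con (1.22-fold lower) and -0.37 ± 0.12 from NCAC. The SD of Acta1 was 21.5% of the mean in CAC at 8 weeks and 22.7% at 6 weeks, against 3.53% in NCAC and 9.35% in Con at 8 weeks and 14.8% in NCAC and 11.5% in Con at 6 weeks.

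The 3 lowest libraries of all 62 in Acta1, replicate 1 of CAC at 6 weeks (28002 TPM) and replicates 6 and 4 of CAC at 8 weeks (28238 and 29978 TPM), were also the 3 lowest in Actc1, at 5.24, 5.19 and 7.79 TPM. The fourth lowest in Acta1, replicate 1 of CAC at 8 weeks (35166 TPM), ranked 31st from the lowest in Actc1, and the fifth, replicate 3 of NCAC at 6 weeks (36356 TPM), ranked 41st. In these 3 libraries genes of the mitochondrial genome held 19.7%, 21.2% and 20.8% of all TPM, against 28.6% to 35.9% in Con at 8 weeks. Replicate 2 of CAC at 6 weeks had a share of 23.3% with 54930 TPM of Acta1, and replicate 5 of CAC at 8 weeks had 22.2% with 47395 TPM. Whether this share bears on the actin levels was not tested.

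**Figure D2:**
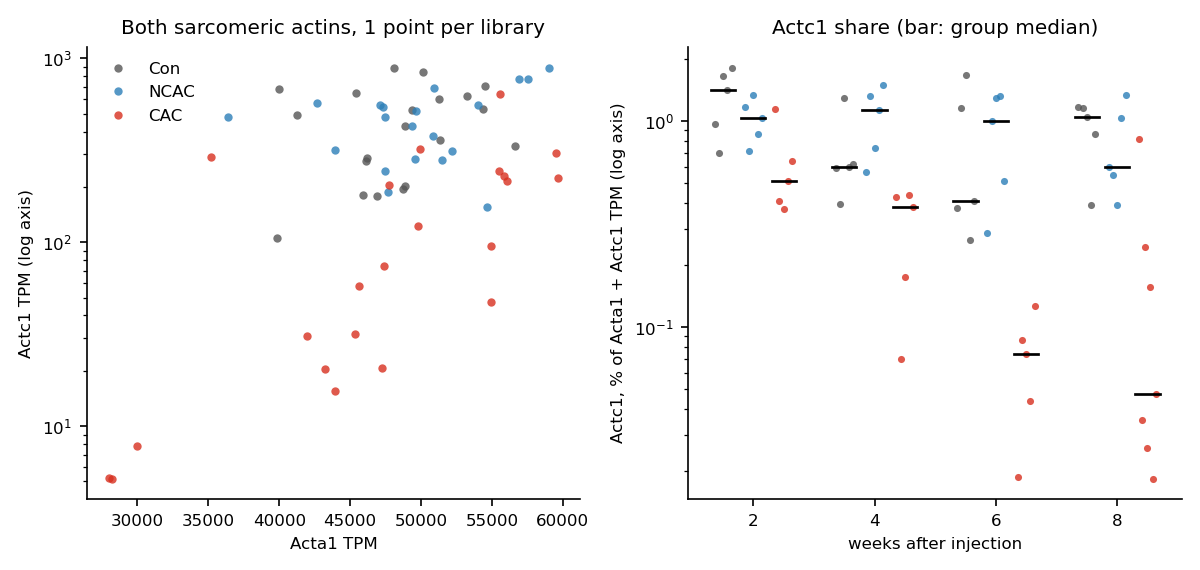
Left, Actc1 TPM (log axis) against Acta1 TPM, 1 point per library in Con (grey), NCAC (blue) and CAC (red). Right, the share of Actc1 in the TPM of Acta1 and Actc1 (percent, log axis) by weeks after injection, with a bar at each group median; the 3 CAC libraries at the lower left hold 5.24, 5.19 and 7.79 TPM of Actc1.

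A ratio within a library does not depend on how TPM is scaled. Actc1 made up 1.31% ± 0.468, 0.697% ± 0.341, 0.777% ± 0.613 and 0.927% ± 0.324 of the sarcomeric pair in Con at 2, 4, 6 and 8 weeks (SD, n = 5). In CAC it was 0.613% ± 0.312 at 2 weeks, 0.298% ± 0.166 at 4 weeks and 0.0699% ± 0.0413 at 6 weeks (SD, n = 5). At 8 weeks the CAC share ranged from 0.0184% through a median of 0.0472% to 0.816%. The lower Actc1 level in CAC was therefore also seen relative to Acta1. The TPM of Acta1 was 54.1 times that of Actc1 in the library with the lowest ratio, a Con library, and 5442 times in the one with the highest, a CAC library.

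The cytoplasmic actins overlapped between CAC and Con at 8 weeks. At that week Actb ranged from 142 TPM through a median of 168 TPM to 266 TPM in CAC. Con held 183, 151, 130, 113 and 129 TPM and NCAC held 117, 133, 167, 107 and 145 TPM. The CAC libraries overlapped both groups, with 2 of 7 above every Con library and 4 of 7 above every NCAC library. The log2 difference of Actb from Con was 0.28 ± 0.17, 0.23 ± 0.17, 0.30 ± 0.17 and 0.36 ± 0.16 at 2, 4, 6 and 8 weeks. Without 1 library it was 0.15 at 2 weeks (CAC replicate 4), 0.14 at 4 weeks (CAC replicate 2) and 0.18 at 6 weeks (Con replicate 2). From NCAC Actb differed by 0.45, 0.16, 0.44 and 0.43 in order of weeks, and by 0.07 at 4 weeks without CAC replicate 2. Against Con the level was 1.28-fold higher at 8 weeks, where the median gene was higher by 0.36 on the same log2 scale.

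Actg1 ranged from 130 TPM through a median of 177 TPM to 274 TPM in CAC at 8 weeks. Con held 211, 192, 183, 140 and 165 TPM and NCAC held 134, 161, 106, 124 and 176 TPM. Here 3 of the 7 CAC libraries lay above all Con libraries and 1 lay below them all. The log2 difference of Actg1 from Con was 0.07 ± 0.19, 0.20 ± 0.19, 0.20 ± 0.19 and 0.15 ± 0.17 at the 4 weeks, with an interval that spans 0 at each. Leaving out 1 library gave -0.04 to 0.19 at 2 weeks (without CAC replicates 5 and 2), 0.09 to 0.33 at 4 weeks (without Con replicates 5 and 1), 0.06 to 0.32 at 6 weeks (without Con replicates 2 and 5) and 0.07 to 0.25 at 8 weeks (without Con replicate 4 and CAC replicate 6). From NCAC it was 0.50 ± 0.17 at 8 weeks, where the NCAC mean of 140 ± 28.3 TPM was also below the Con mean of 178 ± 27.2 TPM (SD, n = 5).

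Both cytoplasmic actins peaked in the same library, replicate 4 of CAC at 8 weeks, with 266 TPM of Actb and 274 TPM of Actg1. That library also had the highest sum of 10 macrophage markers, 870 TPM. Replicates 7 and 2 of the same group had sums of 687 and 622 TPM. They held 212 and 168 TPM of Actb and 259 and 160 TPM of Actg1. The sum was 278 to 870 TPM in CAC at 8 weeks, against 88.5 to 317 TPM in Con and 44.6 to 177 TPM in NCAC. All 10 markers rose in CAC against Con at 8 weeks (limma), 8 of them also after the rescaling described below, where 65.3% and 22.9% of all genes rose. Among markers of other cells at 8 weeks, the sum of 8 endothelial genes was 154 to 268 TPM in CAC and 91.6 to 138 TPM in Con. For 8 fibro-adipogenic genes it was 1284 to 2044 TPM in CAC and 934 to 1455 TPM in Con. The part of these cell types in the levels of Actb and Actg1 was not tested.

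**Figure D3:**
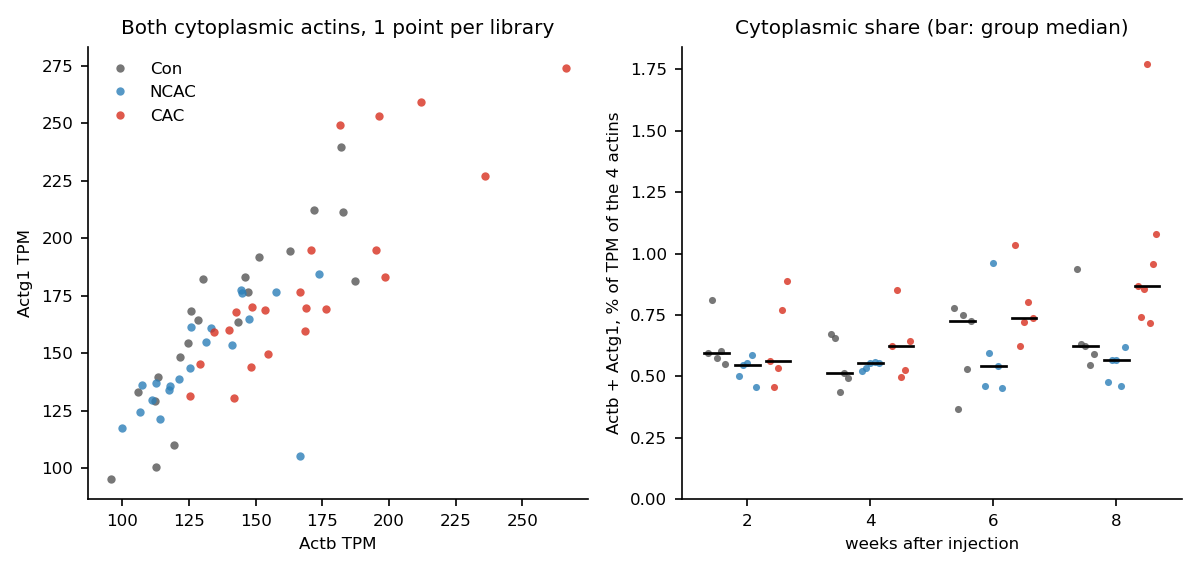
Left, Actg1 TPM against Actb TPM, 1 point per library in Con (grey), NCAC (blue) and CAC (red). Right, the share of Actb and Actg1 in the TPM of the 4 actins (percent) by weeks after injection, with a bar at each group median; the blue point below the main cloud on the left is replicate 3 of NCAC at 8 weeks, with 167 TPM of Actb and 106 TPM of Actg1.

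Within the cytoplasmic pair each gene supplied a similar part. Actg1 made up 56.0% ± 0.973, 53.4% ± 3.14, 50.8% ± 2.97 and 55.9% ± 1.71 of Actb and Actg1 in Con at 2, 4, 6 and 8 weeks, and 52.5% ± 2.69, 52.8% ± 1.62 and 49.1% ± 0.770 in CAC at 2, 4 and 6 weeks (SD, n = 5). In CAC at 8 weeks it ran from 47.9% through 51.5% to 57.9%. The cytoplasmic pair made up 0.626% ± 0.105 of the 4 actins in Con at 2 weeks and 0.666% ± 0.154 at 8 weeks. In CAC it was 0.642% at 2 weeks, 0.629% at 4 weeks and 0.783% at 6 weeks, and at 8 weeks it ranged from 0.718% through a median of 0.869% to 1.77%. Together the 4 actins held 4.85% ± 0.452 of all TPM in Con at 8 weeks (SD, n = 5), and between 2.85% and 5.03% in CAC.

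The median gene stood higher in CAC than in Con, and the differences of 3 members were small enough for the choice of scale to matter. The TPM of a library sum to a fixed total. In CAC against Con the median log2 difference of all genes tested was 0.09, 0.17, 0.28 and 0.36 in order of weeks. Whether the scale of TPM or a broad change in transcript levels lay behind this median was not tested. Median-ratio rescaling, which sets the median gene ratio of each library to a common reference, shifted this median by -0.08, -0.16, -0.27 and -0.34. After it, Acta1 differed from Con by 0.07, -0.16, -0.42 and -0.71 (SE 0.15 to 0.16). Actc1 differed by -1.06, -1.55, -3.70 and -4.00 (SE 0.64 to 0.69). Actb differed by 0.18, 0.03, -0.02 and -0.06 (SE 0.14 to 0.15), and Actg1 by -0.03, -0.01, -0.12 and -0.26 (SE 0.16 to 0.18). Actc1 was lower on both scales at every week. Acta1 at 4 weeks was above 0 as deposited and below 0 after rescaling, within 1 SE of 0 on both scales. The sign of Actb turned from plus to minus at 6 and 8 weeks, and that of Actg1 at all 4 weeks. Of these turned differences, only that of Actg1 at 8 weeks was larger than 1 SE. The others are not read as lower levels.

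**Figure D4:**
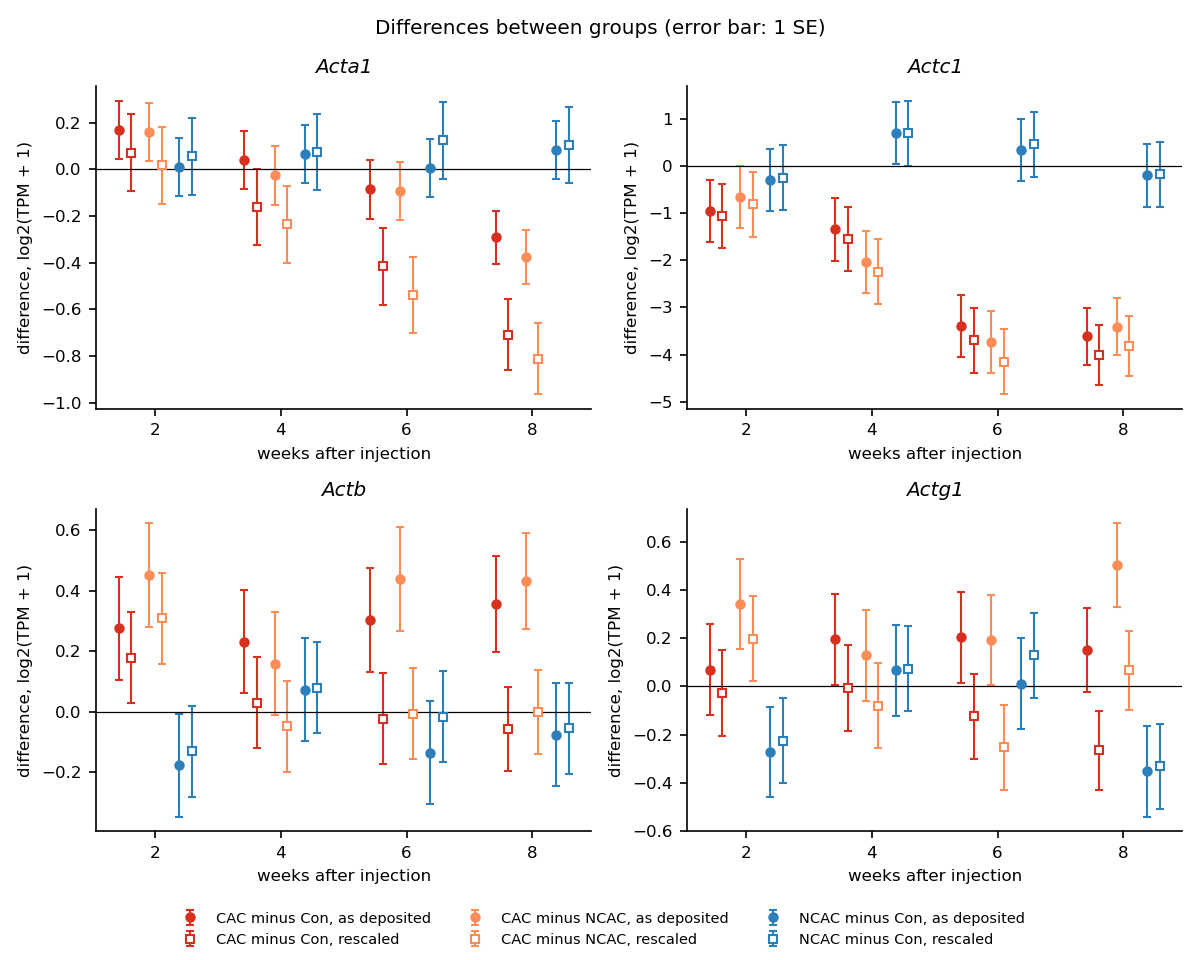
Difference between groups on the log2(TPM + 1) scale for each actin by weeks after injection, with bars of 1 SE, for CAC minus Con (red), CAC minus NCAC (orange) and NCAC minus Con (blue), as deposited (filled circles) and after median-ratio rescaling (open squares). Rescaling lowers every CAC difference of Acta1, Actb and Actg1, and Actc1 stays at or below -3.39 from Con at 6 and 8 weeks on both scales.

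Of the members, 0, 0, 1 and 3 passed an adjusted p of 0.05 (limma) in CAC against Con at 2, 4, 6 and 8 weeks. Over all 12364 genes the shares were 0.283%, 25.3%, 57.2% and 70.8%. Against NCAC 0, 1, 2 and 4 members passed, beside 1.17%, 19.7%, 68.7% and 72.3% of all genes. The members were chosen with these contrasts in view, and nothing is read from their counts.

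No difference between NCAC and Con was detected in the 4 genes. This comparison was tested, as the members were not chosen on it. For Actc1 the log2 differences of NCAC from Con were -0.30, 0.69, 0.33 and -0.21 in order of weeks, each with an SE of 0.66, so that the 95% interval at 8 weeks ran from -1.52 to 1.11. In Acta1 the differences were 0.01, 0.07, 0.01 and 0.08 (SE 0.12), with an interval of -0.17 to 0.33 at 8 weeks. Actb differed by -0.18, 0.07, -0.14 and -0.08 (SE 0.17). Actg1 differed by -0.27, 0.07, 0.01 and -0.35 (SE 0.19), and its interval at 8 weeks was -0.73 to 0.03.

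None of these 16 differences passed the test, with adjusted p from 0.805 to 1.00 by limma. Over all genes 0 of 12364 were called at each of the 4 weeks by limma, while 471, 224, 909 and 139 genes had an unadjusted p below 0.05. For Actc1 the intervals are wide, and a p that misses the threshold does not show that the groups were alike.

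No change of the members over time was detected in muscle without cachexia. Across the 4 weeks of Con the F test of limma gave an adjusted p of 1.00 for Acta1, Actc1 and Actb and of 0.964 for Actg1, where 73 genes (0.590%) were called. Across the weeks of NCAC it gave 1.00 for each of the 4, where 0 genes were called and 420 had an unadjusted p below 0.05. Whether the difference between NCAC and Con changed between weeks was tested in the same way, with an adjusted p of 1.00 for each member, 0 genes called and 186 at an unadjusted p below 0.05.

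The within-library ratios were tested as well. For the Actc1 share of the sarcomeric pair, the Actg1 share of the cytoplasmic pair and the cytoplasmic share of the 4, NCAC was compared with Con at each week by an exact two-sided permutation test, 12 tests in all. The smallest p that 5 against 5 libraries allow is 0.00794. The lowest p found was 0.0476, for the Actg1 share at 8 weeks and for the cytoplasmic share at 2 weeks, and both had an adjusted p of 0.262. At 8 weeks Actg1 made up 51.1% ± 6.92 of the pair in NCAC and 55.9% ± 1.71 in Con (SD, n = 5), a difference of -4.76 percentage points that was -1.68 without replicate 3 of NCAC. At 2 weeks the cytoplasmic actins made up 0.530% ± 0.0515 of the 4 in NCAC and 0.626% ± 0.105 in Con, a difference of -0.0967 percentage points that was -0.0509 without replicate 2 of Con.

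Acta2 and Actg2, the other actins of muscle tissue, are those of smooth muscle. Acta2 held 58.8 ± 36.0 TPM in CAC at 8 weeks (SD, n = 7) and 32.2 ± 6.70 TPM in Con (n = 5). In CAC against Con it fell by 0.90 on the log2 scale at 4 weeks (limma, adjusted p = 0.0269). It rose by 0.80 at 6 weeks (adjusted p = 0.0228) and by 0.69 at 8 weeks (adjusted p = 0.0279). Both rises missed the threshold after rescaling, with adjusted p of 0.194 and 0.403. Acta2 also differed between the weeks of Con (F test of limma, adjusted p = 0.0392), from 77.4 ± 26.6 TPM at 4 weeks to 32.2 ± 6.70 TPM at 8 weeks. Actg2 held 0.887 ± 0.162 TPM in CAC and 2.48 ± 1.74 TPM in Con at 4 weeks (SD, n = 5), where it fell by 0.74 (adjusted p = 0.0345). Of 8 smooth muscle and pericyte markers 1 rose and 2 fell in CAC at 4 weeks, and 6 rose and 0 fell at 8 weeks, or 2 and 0 after rescaling. Of all genes 23.0% rose and 2.38% fell at 4 weeks. At 8 weeks 65.3% of all genes rose and 5.55% fell, or 22.9% and 22.3% after rescaling. The part of these markers' cells in the level of Acta2 was not tested.

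Genes that act on actin were taken from lists of known function, and their calls in CAC against Con are given beside the shares of all genes. As deposited 23.0% of all genes rose and 2.38% fell at 4 weeks, and 51.8% rose and 5.41% fell at 6 weeks. At 8 weeks 65.3% rose and 5.55% fell, and 22.9% rose and 22.3% fell after rescaling. Each list is read beside these shares. The lists were chosen with earlier results of these data known. Genes named from them were picked by their test in CAC against Con at 8 weeks, unless stated otherwise. Their p-values are therefore no independent evidence.

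Srf, the factor that binds CArG boxes, did not pass the test at any week. Its log2 differences from Con were -0.07, 0.04, -0.06 and -0.10 in order of weeks, with an adjusted p from 0.294 to 0.803 (limma). Of the 15 tested genes of the Srf and MRTF list 8 rose and 2 fell at 8 weeks, and after rescaling 2 rose and 5 fell. Its median was 0.30, beside 0.36 for all genes. The genes that fell were Mical2, an enzyme that oxidises actin and promotes MRTF entry into the nucleus, and Mef2c, a muscle transcription factor, by 0.56 (adjusted p = 0.000762), which was named after its value was seen. Mical2 stood at 16.4 ± 3.86 TPM in CAC (SD, n = 7) and 32.6 ± 1.57 TPM in Con (SD, n = 5) at 8 weeks. Its difference was -0.48 at 2 weeks, where it was not called (adjusted p = 0.137), and it fell at 4 weeks by 0.89, at 6 weeks by 1.21 and at 8 weeks by 0.98, the last with adjusted p = 1.16e-07 and with a value of -1.37 after rescaling. Mkl1, which encodes MRTF-A and was also named after its value was seen, differed by -0.58 at 8 weeks (adjusted p = 0.0701). Rhoa, the small GTPase upstream, rose by 0.50 and Mef2d rose by 0.46 at 8 weeks (adjusted p = 1.61e-06 and 7.22e-05), and neither was called after rescaling (adjusted p = 0.127 and 0.672).

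Of 18 proteins that bind or turn over actin monomers 13 rose and 0 fell at 8 weeks, and 5 rose and 2 fell after rescaling. At 4 and 6 weeks 7 and 13 rose. Twf1, a monomer-sequestering twinfilin, went from 5.95 ± 0.960 TPM in Con to 13.3 ± 4.80 TPM in CAC and rose by 0.98 ± 0.16 (adjusted p = 1.32e-06, limma). Pfn2, a profilin that feeds monomers to growing filaments, rose by 0.61, and Cap1, which recharges monomers, rose by 0.70 (adjusted p = 4.71e-06 and 5.31e-06). Pfn2 missed the threshold after rescaling (adjusted p = 0.0905).

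Of 19 tested nucleators of filaments, the Arp2/3 complex, its activators and the formins, 17 rose and 1 fell at 8 weeks, and 7 rose and 3 fell after rescaling. Wasf2, an activator of Arp2/3, went from 10.2 ± 1.06 TPM in Con to 19.4 ± 4.22 TPM in CAC and rose by 0.84 ± 0.12 (adjusted p = 9.57e-08, limma). Arpc3, a subunit of the complex, rose by 0.72, and Diaph2, a formin, by 0.64 (adjusted p = 1.8e-07 and 1.19e-07). The one that fell was Fhod3, a formin of the sarcomere, by 0.50 (adjusted p = 0.00111); it is named because it was the only fall, after its value was seen.

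Of 16 tested genes that set the ends and the length of thin filaments 8 rose and 3 fell at 8 weeks, and 1 rose and 7 fell after rescaling. The list's median changed from 0.23 to -0.18 with the scale, so its direction depends on it. Tmod3, a pointed-end cap outside the sarcomere, rose by 0.66, Capza1, a barbed-end cap, by 0.55, and Klhl41, which stabilises nebulin, by 0.40 (adjusted p = 1.74e-05, 5.58e-05 and 0.000177, limma). Capza1 and Klhl41 missed the threshold after rescaling (adjusted p = 0.122 and 0.889). The falls, named after their values were seen, were Tmod1, the sarcomeric pointed-end cap, by 0.31, Lmod1, a smooth muscle leiomodin, by 0.82, and Kbtbd13, a thin filament protein of muscle, by 0.52 (adjusted p = 0.001, 0.00683 and 0.0209).

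Of 19 tested cross-linkers and membrane anchors 15 rose and 0 fell at 8 weeks, and 6 rose and 0 fell after rescaling. Actn1, the alpha-actinin of cells other than fibres, went from 4.31 ± 0.849 TPM in Con to 14.2 ± 5.72 TPM in CAC and rose by 1.43 ± 0.18 (adjusted p = 1.39e-08, limma). Tln2, a talin of muscle adhesions, rose by 0.96 and Iqgap1, a scaffold of the cell cortex, by 0.73 (adjusted p = 1.07e-08 and 1.74e-06). All 3 stayed past the threshold after rescaling.

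Of 18 genes that fold or modify actin, such as the CCT chaperonin and prefoldin, 15 rose and 0 fell at 8 weeks, while 2 rose and 5 fell after rescaling. Pfdn5, a prefoldin subunit, rose by 0.60, Cct4, a chaperonin subunit, by 0.62 and Unc45b, a myosin chaperone, by 0.49 (adjusted p = 7.75e-08, 8.92e-07 and 5.21e-07, limma). Unc45b missed the threshold after rescaling (adjusted p = 0.438). Of 14 tested genes of developing and regenerating muscle 6 rose and 1 fell at 8 weeks, and 4 rose and 2 fell after rescaling. As deposited, 7 were not called, among them Myh3, Myh8, Myl4 and Myog, with differences of 0.02, 0.37, -0.22 and 0.44. Tnnt2, Ankrd1 and Myh7 rose beside the risers named next. These genes were named after their values were seen. Ankrd2, a stretch-responsive protein, went from 137 ± 58.7 TPM in Con to 401 ± 196 TPM in CAC and rose by 1.54 ± 0.36 (adjusted p = 0.000211). Runx1, which is induced by denervation, rose by 0.86 and Cdh15, a cadherin of satellite cells, by 0.92 (adjusted p = 4.42e-07 and 1.14e-05). The fall, named after its value was seen, was Mybph, a myosin-binding protein, by 1.45 (adjusted p = 0.0368).

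**Figure D5:**
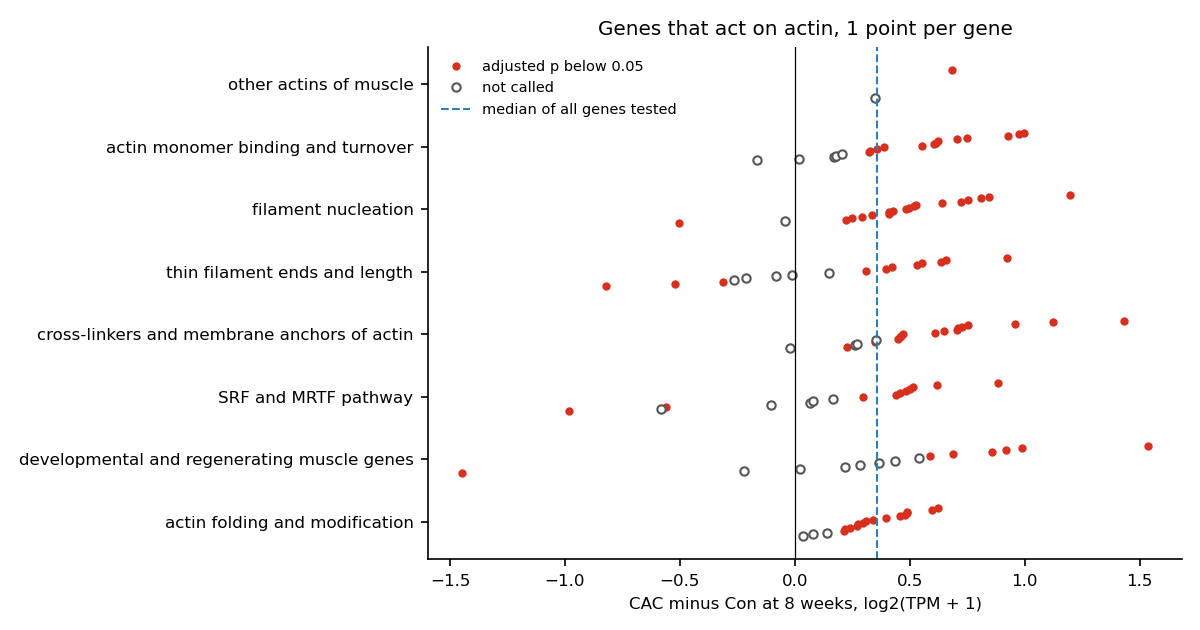
Difference between CAC and Con at 8 weeks on the log2(TPM + 1) scale for each tested gene of the lists, 1 point per gene, red where the adjusted p of limma is below 0.05 and open where it is not; the dashed line is the median of all genes tested, 0.36. The leftmost points are Mybph at -1.45 and Mical2 at -0.98, and the rightmost is Ankrd2 at 1.54.

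Which transcripts followed each actin over the 62 libraries was described by the Spearman rank correlation of log2(TPM + 1). For the genes named as followers, clone-named and predicted genes and the other members were passed over. The libraries share groups and the scale of TPM, so the values are a description. Actc1 was followed most closely by Taco1, a translation activator of a mitochondrial subunit (rho = 0.73), Col22a1, the collagen of the myotendinous junction (0.73), and Sod2, the superoxide dismutase of mitochondria (0.73). Their log2 differences of CAC from Con at 8 weeks were -0.78, -0.99 and -0.43, given without a test since the genes were picked for their likeness to Actc1 in the same libraries. Acta1 was followed by Myl1, a fast myosin light chain (0.71), Man2a2 (0.69) and Sypl2, a protein of the triad (0.69). The correlation between Acta1 and Actc1 was 0.36.

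Actb was followed by Trp53 (0.84), Cfl1, the cofilin that severs filaments (0.82), and Ctnnd1, a catenin of adherens junctions (0.81). Actg1 was at 0.84 with Actb and was followed by Adam19 (0.80), Cxcl16 (0.78) and Smurf1 (0.77). With Acta1 the correlation of Actb was -0.00 and that of Actg1 0.14, and with Actc1 they were -0.36 and -0.07.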

How the data were processed

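RNA of mouse gastrocnemius was sequenced from TruSeq stranded mRNA libraries on an Illumina NovaSeq instrument, per the labels' protocols. The authors deposited gene values as TPM in 1 table of 62 libraries and 47643 symbols, each library summing to 1000000, and build mm10 is named in the submitters' processing notes. Which aligner and counter were used is not given in the sources used here. TPM are not counts, so log2(TPM + 1) of the 12364 genes with at least 1 TPM in at least 5 libraries was fitted with limma 3.58.1 (R 4.3.3), 1 mean for each of the 12 groups with a shared spread, Benjamini-Hochberg adjustment over all genes and a threshold of 0.05. The scripts were tested on simulated data. Ratios were compared by exact permutation tests (scipy 1.17.1, Python 3.11.15). Groups came from the library descriptions. Replicate numbers were not a block: 16 of 60 same-numbered pairs had deviations correlated over 0.1, and in 0 of 12 comparisons did every pair. As alternatives, the fit was repeated with no filter, with one at 5 TPM, with 0.1 as pseudocount, with median-ratio rescaling, mitochondrial genes left out, array weights, only the groups compared, the block and leaving out each library. From each list the 3 genes of largest absolute moderated t in CAC against Con at 8 weeks are named, plus Acta2, Actg2 and Srf. For likeness the 3 of highest rho are named, with clone-named and predicted genes and other members passed over. The members and lists were chosen with earlier results of these data known. Promoter windows are from RefSeq, GRCm38.p6; 3 of the 4 members matched.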

Additional observations from a re-analysis of the deposited data

Results flagged for a closer look

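In each group of 5 or 7 libraries the highest and lowest value was set against the others by Dixon's test, for member levels and ratios, 84 groups in all. It picked out 8 values, and chance flags about 1 in 20 groups, or 4.2 here. All 8 were ratios. Levels were examined as log2(TPM + 1) and ratios as plain percent, so the flags of levels and of ratios cannot be compared. Actc1 made up 1.29% of the sarcomeric pair in replicate 3 of Con at 4 weeks, where the others held 0.396% to 0.617%. It made up 0.816% in replicate 1 of CAC at 8 weeks, against 0.0184% to 0.246%. Actg1 made up 48.0% of the cytoplasmic pair in replicate 5 of Con at 4 weeks, against 53.5% to 55.7%. In replicate 3 of NCAC at 8 weeks it made up 38.8%, against 53.3% to 54.9%. That library held the highest Actb and the lowest Actg1 of its group. The cytoplasmic share of the 4 actins stood out as high in 4 libraries. It was 0.81% in replicate 2 of Con at 2 weeks (others 0.549% to 0.603%) and 0.935% in replicate 1 of Con at 8 weeks (others 0.546% to 0.633%). It was 0.963% in replicate 3 of NCAC at 6 weeks (others 0.454% to 0.596%) and 1.77% in replicate 4 of CAC at 8 weeks (others 0.718% to 1.08%).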

How the results depend on the processing

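Alternatives were run for the members' differences, week tests and ratios and for the counts of genes called; of the other genes only rescaled values were computed. With a pseudocount of 0.1 or a filter at 5 TPM, all 68 values kept their side of the threshold or moved by less than the spread between replicates. After median-ratio rescaling, against Con, Acta1 went to -0.16, -0.42 and -0.71 at 4, 6 and 8 weeks, Actb to -0.0235 and -0.0561 and Actg1 to -0.12 and -0.26 at 6 and 8 weeks. Against NCAC, Acta1 went to -0.24, -0.54 and -0.81, Actb to -0.0063 and -0.0018, and Actg1 to -0.25 and 0.067. The genes called in CAC against Con went from 3134, 7069 and 8755 to 1883, 3915 and 5585 at 4, 6 and 8 weeks. Without mitochondrial genes 1685 and 4680 were called at 4 and 6 weeks, and Acta1 differed from NCAC by -0.34 at 6 weeks. With array weights 390 genes were called in CAC at 2 weeks (35 as reported), and with only the groups compared 2 at 2 weeks and 1160 at 4 weeks. For NCAC against Con, where 0 were called, the counts were 1 and 2 at 2 and 8 weeks with no filter, 17 at 2 weeks with array weights, 1 at 2 weeks with only the groups compared and 1 at 6 weeks after rescaling. Leaving out 1 library gave 7 to 114 genes in CAC at 2 weeks, 758 (without replicate 2 of CAC) to 3661 at 4 weeks, and 0 to 18 in NCAC at 4 weeks. It turned the sign of small NCAC differences from Con, in Acta1 (-0.0382 to 0.0553 at 2 weeks, -0.0623 to 0.0845 at 6 weeks), Actg1 (-0.04 to 0.20 at 4 weeks, -0.13 to 0.13 at 6 weeks), Actc1 (-0.00992 to 0.66 at 6 weeks, -0.51 to 0.0272 at 8 weeks) and Actb (-0.16 to 0.022 at 8 weeks), and in percentage points in the Actg1 share (-1.45 to 0.478 at 4 weeks), the cytoplasmic share (-0.0388 to 0.01996 at 4 weeks, -0.116 to 0.0111 at 6 weeks) and the Actc1 share (-0.0227 to 0.329 at 6 weeks). It also turned the sign of Actg1 in CAC against Con at 2 weeks (-0.0426 to 0.193), of Acta1 in CAC against NCAC at 4 weeks (-0.0647 to 0.0212) and at 6 weeks (-0.184 to 0.0594), and of Acta1 in CAC against Con at 6 weeks (-0.178 to 0.0645). The cause was not tested. With the replicate block, whose numbers do not pair the libraries, Actc1 differed from Con by -3.39 at 6 weeks and -2.99 at 8 weeks and 34, 3494, 7179 and 8017 genes were called in CAC against Con. The lowest Actc1 value stood for an estimated 139 reads. Which of depth, spread and group size limits the comparisons was not tested.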
